A study of Mus musculus with 360 samples.

Results

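The 8 genes described here encode proteins of the hair bundle, the tuft of stereocilia on the apical surface of a hair cell: Adgrv1, Whrn, Pdzd7, Ush1c, Ush1g, Clrn1, Ptprq and Strc. They were chosen by symbol, and all 8 had a row among the 48440 genes of the deposited matrix of exon counts. The count in each cell is of unique molecular identifiers (UMIs), tags that mark single cDNA molecules. A level below is the sum of a gene's UMIs in a set of cells, scaled by the set's total to CPM, with an exact Poisson 95% interval where one is given. A ratio of 2 levels carries an exact 95% interval. Every interval covers counting error only, because the labels name no animals, each genotype counts as 1 sample and no difference between genotypes was tested.

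Cells of the mouse cochlea were sorted singly on tdTomato and EpCAM fluorescence, and 180 of each of 2 genotypes were sequenced. Control animals were Fbxo2CreERT2::Rosa26-tdTomato, with a tamoxifen-inducible Cre recombinase under control of Fbxo2 and a red reporter. GAP animals carried in addition Rosa26-GAP, a Cre-dependent allele of the transcription factors Gfi1, Atoh1 and Pou4f3, which direct hair cell fate. All animals received tamoxifen at 3 weeks of age and were dissociated with papain at 5 weeks, so the control cells also carry active Cre. Cre acts only where Fbxo2 was expressed, and native hair cells were not analysed here. The titles name the cells with the letters A (91 cells) and B (89) in controls and C (92) and D (88) in GAP animals, read here as plates. Letter and genotype cannot be told apart.

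Control cells held 4001274 UMIs in all, with a median of 21280 in a cell and a range from 6985 to 55129. GAP cells held 5366362, with a median of 28963 and a range from 8550 to 60218. The authors' deposited clusters cover 341 cells, and their names are used as given. In controls the sets of at least 10 cells were WT Cells 1 (80 cells), WT Cells 2 (29), WT Supp Cells (29), WT Cells 3 (20) and Reprogrammed Unknown 1 (13). In GAP animals they were Reprogammed Sup Cells 1 (54 cells, spelled as in the file), Reprogrammed Hair Cells (51), Reprogrammed Supp Cells 2 (20), Reprogrammed Unknown 1 (13) and Reprogrammed Unknown 2 (10). The 17 GAP cells without a cluster were deeper than the rest, with a median of 49455 UMIs, and 14 of them came from letter C. The genes of the allele followed the labels: Atoh1 and Pou4f3 had 0 UMIs in control cells, Gfi1 had 1, and their GAP levels were 805 CPM, 583 CPM and 203 CPM. The cells of Reprogrammed Hair Cells had a summed hair cell marker level of 3433 CPM with 11 of 14 markers at 10 CPM or more. All control cells had 238 CPM with 3 of 14. Reprogammed Sup Cells 1 had 2979 CPM, also with 11 of 14, so the count of markers does not set these 2 GAP clusters apart. The list includes Gfi1 and Pou4f3, which are genes of the allele. Slc26a5 and Ocm, outer hair cell markers, were at 0 in both clusters. The supporting cell markers of Reprogrammed Hair Cells summed to 12806 CPM, against 11878 CPM in control cells. Sox2 was at 0 in Reprogrammed Hair Cells. It was also at 0 in the control sets WT Cells 1, WT Cells 2 and WT Cells 3 and in the GAP cells of Reprogrammed Unknown 2.

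Stereocilia of a developing bundle are held together by several kinds of fine extracellular filament. Ankle links join neighbouring stereocilia near their base and contain ADGRV1, anchored inside the cell by a complex of the PDZ scaffolds whirlin (Whrn) and PDZD7. Tip links are made of cadherin 23 and protocadherin 15 and are tethered at their upper end by harmonin (Ush1c), SANS (Ush1g) and myosin VIIa. Shaft connectors, higher on the stereocilium, need the receptor-like phosphatase PTPRQ, and the horizontal top connectors of outer hair cells need stereocilin (Strc). Loss of most of these proteins causes deafness, and mutations in Ush1c, Ush1g, Adgrv1, Whrn and Clrn1 cause forms of Usher syndrome, in which deafness is joined by loss of sight.

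Promoter sequences were at hand for 6 of the 8 genes, in RefSeq's table for GRCm38.p6, as windows from 250 bases before to 50 after the annotated start. Of these, 4 are shown from their 250 upstream bases, because they belong to the 3 genes in the table that were at least 2-fold higher in GAP cells (Clrn1, Whrn and Strc), as described below, and to Pdzd7, whose window held a motif match. RefSeq's start of Strc lies inside the longer gene span that GENCODE gives further down, so the bases shown for Strc lie upstream of the RefSeq start only, and to a lesser extent the same holds for Clrn1. Each is written 5′ to 3′ on the strand of its gene, and capitals mark the matches to the 4 motifs searched.

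Clrn1 (chr3:58885213-58885462, minus strand): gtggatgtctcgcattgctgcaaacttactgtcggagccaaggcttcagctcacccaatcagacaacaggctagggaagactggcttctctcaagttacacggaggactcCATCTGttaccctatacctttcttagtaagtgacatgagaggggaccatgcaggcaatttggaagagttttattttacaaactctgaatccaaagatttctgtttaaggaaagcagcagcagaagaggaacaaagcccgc

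Pdzd7 (chr19:45045773-45046022, minus strand): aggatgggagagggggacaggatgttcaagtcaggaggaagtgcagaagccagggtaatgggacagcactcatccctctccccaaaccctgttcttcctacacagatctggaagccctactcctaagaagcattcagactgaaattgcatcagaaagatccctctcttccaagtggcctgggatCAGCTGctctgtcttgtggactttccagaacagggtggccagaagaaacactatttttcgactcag

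Whrn (chr4:63495992-63496241, minus strand): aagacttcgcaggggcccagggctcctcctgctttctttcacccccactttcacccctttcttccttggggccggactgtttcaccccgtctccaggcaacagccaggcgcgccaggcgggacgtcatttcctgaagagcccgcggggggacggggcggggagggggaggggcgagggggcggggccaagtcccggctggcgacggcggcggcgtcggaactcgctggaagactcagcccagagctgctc

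Strc (chr2:121380941-121381190, minus strand): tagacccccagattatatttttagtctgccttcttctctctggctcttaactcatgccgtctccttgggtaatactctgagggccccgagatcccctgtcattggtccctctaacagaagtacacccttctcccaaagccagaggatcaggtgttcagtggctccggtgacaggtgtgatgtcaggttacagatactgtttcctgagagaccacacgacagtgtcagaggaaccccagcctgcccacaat

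The motifs were the E-boxes CAGCTG and CAGATG, of the kind bound by Atoh1, and the short cores AATCAC (Gfi1) and ATTAAT (POU4 factors), searched on both strands. The capitals in Clrn1 are a CAGATG on the opposite strand, at an offset of -140 from the start, and those in Pdzd7 are the palindrome CAGCTG, at -66. No other match lay in the 6 windows, which also included Ush1c and Adgrv1. Among 32851 promoter windows of the same length, 16.3% held CAGCTG, 17.2% held CAGATG, 10.4% held AATCAC and 4.75% held ATTAAT, and 1 of the 6 windows held each E-box. The upstream bases of Whrn are rich in G and C, at 69.6%, while those of Clrn1 hold 46.4%. These are letter matches only and carry no evidence of binding.

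Control cells had Ush1c and Pdzd7 at a clear level, few or no UMIs of the other genes, and none of Ush1g. Among the 6 genes at 10 CPM or more in at least 1 genotype, Whrn, Clrn1, Ptprq and Strc were at least 2-fold higher in GAP cells and none was 2-fold lower, while Ush1c and Pdzd7 stayed within 2-fold. Of all 10152 genes at that level, 13% were at least 2-fold higher and 6.61% at least 2-fold lower. The median log2 ratio of the 6 was 4.17 with 1 CPM added to each level, or 4.33 with Ptprq and Strc at their bounds, beside 0.10 over all genes. Only Ush1c and Pdzd7 were at 10 CPM or more in control cells, so the other 4 passed the limit through the group where they were high. Adgrv1 stayed under the limit in both genotypes and Ush1g had no UMI.

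**Figure D1:**
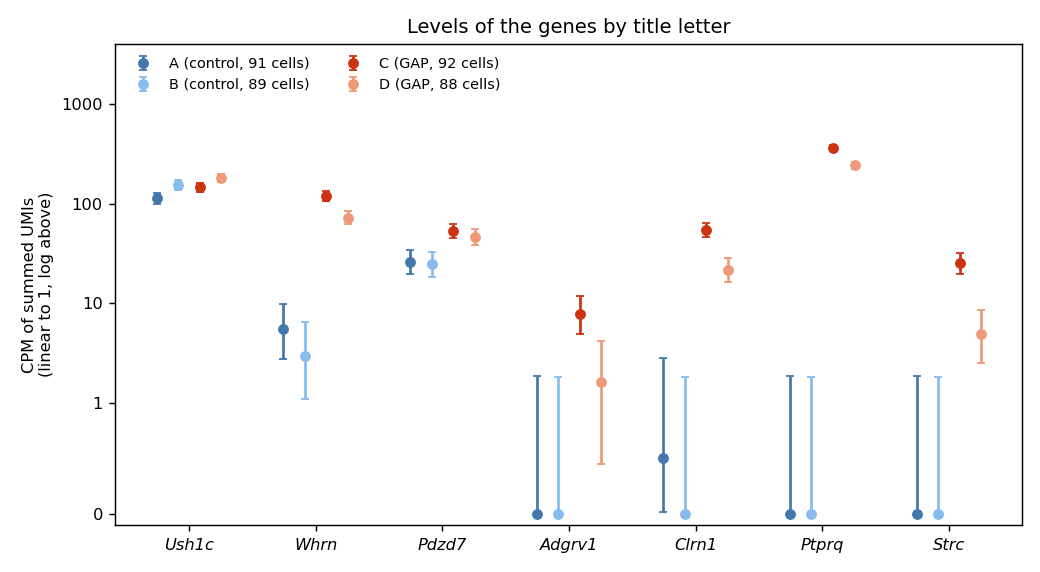
Level of 7 of the genes in the cells of each title letter, in CPM of summed UMIs on an axis that is linear to 1 and logarithmic above, with points for the 4 letters and bars for exact Poisson 95% intervals. Ush1c lies between 113 and 182 CPM in all 4 letters, whereas Ptprq lies at 0 in the control letters and at 365 CPM (C) and 244 CPM (D) in the GAP letters; Ush1g, with 0 UMIs, is not drawn.

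Harmonin, the scaffold encoded by Ush1c (chromosome 7, 46195350 to 46238503, minus strand; 3849 exon bases), was the member with the most even level between genotypes. Its level was 113 CPM in letter A, 154 CPM in B, 146 CPM in C and 182 CPM in D. The ranges of the control and GAP letters overlapped. Summed, 534 UMIs in controls gave 133 CPM and 871 in GAP cells gave 162 CPM, a ratio of 1.22 (95% interval 1.09 to 1.36). The spread between the letters of 1 genotype was as large, since B exceeded A by 1.36-fold (1.14 to 1.62) and D exceeded C by 1.25-fold (1.09 to 1.43). At least 1 Ush1c UMI was found in 65% of control cells and 70.6% of GAP cells. With each cell thinned to 8000 UMIs, the depth at which 177 control cells and all 180 GAP cells could be compared, the shares were 50.3% (Clopper-Pearson 95% interval 42.7 to 57.9) and 51.7% (44.1 to 59.2).

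Within genotypes the level of Ush1c differed by cluster. It was highest in Reprogrammed Supp Cells 2 at 386 CPM (323 to 458), followed by the control WT Supp Cells at 222 CPM (181 to 270) and Reprogammed Sup Cells 1 at 212 CPM (191 to 234), of which the last 2 overlapped. WT Cells 1 had 180 CPM, the control cells of Reprogrammed Unknown 1 had 138 CPM, Reprogrammed Unknown 2 had 127 CPM, Reprogrammed Hair Cells had 100 CPM (84.7 to 118) and WT Cells 3 had 89.6 CPM. From the fourth to the eighth of these no neighbours differed beyond counting error, although WT Cells 1 exceeded WT Cells 3 by 2.01-fold (1.45 to 2.83). WT Cells 2 followed at 24.7 CPM (15.1 to 38.2) and the GAP cells of Reprogrammed Unknown 1 at 5.69 CPM, from 2 UMIs. At equal depth 90% of the 20 cells of Reprogrammed Supp Cells 2 had an Ush1c UMI, against 41.2% in Reprogrammed Hair Cells. The letters stood apart in the latter, with 57.7 CPM and 20% of cells in C and 128 CPM and 54.8% in D. They also did in WT Cells 3, with 41.1 CPM in A and 183 CPM in B.

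The cells named Reprogrammed Unknown 1 differed by genotype although they share a cluster. Ush1c had 46 UMIs in its 13 control cells and 2 UMIs in its 13 GAP cells, 24.2-fold lower (6.32 to 206). Markers of supporting cells moved with this difference: they summed to 15904 CPM in the control cells and 2702 CPM in the GAP cells, and 11 of the 13 GAP cells came from letter C. Their part in the result was not tested.

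Whirlin, encoded by Whrn (chromosome 4, 63414910 to 63495991, minus strand; 7337 exon bases), organises the ankle link complex and also sits at stereocilia tips. Its level was 5.54 CPM in letter A, 2.97 CPM in B, 120 CPM in C and 72.2 CPM in D. The GAP letters were both well above the control letters. Against 17 UMIs in 8 control cells there were 527 in 85 GAP cells, a ratio of 23.1 (14.3 to 40.0). The 17 unclustered GAP cells held 167 of these UMIs, or 31.7%, and without them the ratio was 18.8 (11.6 to 32.6). Cells with a Whrn UMI made up 4.44% of controls and 47.2% of GAP cells, or 2.26% (0.619 to 5.68) and 30.6% (23.9 to 37.8) at equal depth.

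Whrn was not highest in the cells named hair cells. Reprogammed Sup Cells 1 had 157 CPM (139 to 177), Reprogrammed Hair Cells 41.5 CPM (31.7 to 53.5), 3.78-fold lower (2.85 to 5.09), and Reprogrammed Supp Cells 2 had 26.3 CPM (interval 12 to 50). The next in order, WT Supp Cells at 17.4 CPM, both Reprogrammed Unknown clusters of GAP cells at 14.2 and 12.3 CPM, and the other control sets at 7.41 CPM or less, did not differ from their neighbours beyond counting error. Some sets further apart did. WT Supp Cells exceeded WT Cells 1 by 29.6-fold (3.97 to 1313), from 8 against 1 UMIs, and WT Cells 2 exceeded WT Cells 1 by 12.6-fold (1.53 to 579). Letter C gave 177 CPM in Reprogammed Sup Cells 1 and 54.2 CPM in Reprogrammed Hair Cells, and letter D gave 134 CPM and 33.2 CPM, so the order was the same in each letter. At equal depth 51.9% (37.8 to 65.7) of the cells of Reprogammed Sup Cells 1 had a Whrn UMI and 21.6% (11.3 to 35.3) of Reprogrammed Hair Cells, with median depths of 34992 and 28271 UMIs before thinning. In the 15 GAP cells that share a cluster with most of the control cells the share was 6.67%, from 1 cell.

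Pdzd7 (chromosome 19, 45026906 to 45045717, minus strand; 4055 exon bases), whirlin's partner scaffold in the ankle link complex, had 26.2 CPM in letter A, 24.8 CPM in B, 52.9 CPM in C and 46.8 CPM in D. Levels in both GAP letters lay above those in both control letters, and the letters of a genotype were close to each other. The ratio was 1.97 (1.56 to 2.49) from 102 and 269 UMIs. It passed 2-fold when letter D was left out or when only cells with at least 10000 UMIs were kept. Among cells with a cluster it was 1.83 (1.44 to 2.35). Without the highest cell, of letter D with 28 UMIs, it was 1.78 (1.41 to 2.26). Reprogrammed Hair Cells had 60.9 CPM, Reprogrammed Supp Cells 2 had 52.6 CPM, Reprogammed Sup Cells 1 had 51.3 CPM and WT Cells 3 had 39.6 CPM, and no neighbours in the order of the 10 sets differed beyond counting error. Sets further apart could differ, as Reprogammed Sup Cells 1 exceeded WT Cells 1 by 1.98-fold (1.37 to 2.90). The lowest were WT Supp Cells at 10.9 CPM and the GAP cells of Reprogrammed Unknown 1 at 2.85 CPM. All 19 UMIs of WT Cells 3 came from letter A. In the annotation 206 of the exon bases of Pdzd7 (5.08%) lie opposite exons of Lzts2. The use of strand in counting is not given in the sources used here, so UMIs of Pdzd7 and Lzts2 cannot be told apart there. The share of the Pdzd7 UMIs that lie in these bases was not measured.

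Ush1g (chromosome 11, 115315192 to 115322041, minus strand; 3306 exon bases), which encodes the tip link scaffold SANS, had 0 UMIs among the 9367636 of all 360 cells. The limit that a count of 0 allows is 0.75 CPM in control cells and 0.559 CPM in GAP cells, and 1.67% of the 180 GAP cells at equal depth. Its exons share no base with another gene in the annotation. At this depth a lower level was not detectable.

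Adgrv1 (chromosome 13, 81095068 to 81633154, minus strand; 24878 exon bases), the very large adhesion receptor of the ankle link, was sparse. It had 0 UMIs in letters A and B, 7.85 CPM in C and 1.64 CPM in D. Its 27 UMIs in GAP cells lay in 10 cells, and 12 of them in a single cell of letter C without a cluster. Reprogrammed Hair Cells held 12 more UMIs in 6 of 51 cells, at 8.31 CPM (4.29 to 14.5), and the other clustered GAP cells held 3. The GAP level of 5.03 CPM was 6.71-fold the control limit of 3 counts, or 4.43-fold among cells with a cluster. The exact 95% intervals of the ratios start at 5.09 and 3.18.

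Clarin-1, the small membrane protein encoded by Clrn1 (chromosome 3, 58844028 to 58885340, minus strand; 3857 exon bases), is needed in the hair bundle and at the hair cell synapse. Its level was 0.504 CPM in letter A, from 1 UMI, 0 in B, 54.6 CPM in C and 21.8 CPM in D. The GAP letters did not overlap with the control letters, and C was 2.51-fold higher than D (1.83 to 3.49). The 213 UMIs of GAP cells and the single control UMI gave a ratio of 159 (28.2 to 6302), or 136 (24.0 to 5388) among cells with a cluster. In GAP cells 21.7% had a Clrn1 UMI, or 12.8% (8.28 to 18.6) at equal depth, against 0.556% and 0% in control cells.

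Reprogrammed Hair Cells had 54 CPM of Clrn1 (42.7 to 67.4), Reprogammed Sup Cells 1 had 35.5 CPM (27.3 to 45.4) and Reprogrammed Supp Cells 2 had 23.4 CPM (10.1 to 46.1). The hair cell cluster exceeded Reprogammed Sup Cells 1 by 1.52-fold (1.08 to 2.15), and no later neighbours in the order differed beyond counting error. Letter C gave 89.1 CPM in the hair cell cluster and 50.6 CPM in Reprogammed Sup Cells 1, and letter D gave 31.0 and 18.1 CPM. A single cell of letter C held 32 of the 78 UMIs of Reprogrammed Hair Cells, or 41%. Without that cell the hair cell cluster stood at 32.7 CPM, below Reprogammed Sup Cells 1 but inside its interval. The difference with the letters summed therefore rests on that cell. In letter D, which does not hold it, the ratio was 1.71 (0.876 to 3.45), which includes no difference. At equal depth the shares of cells with a UMI were 15.7% and 16.7% in the first 2 clusters, so the share did not follow the level.

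The shaft connector phosphatase gene Ptprq (chromosome 10, 107517049 to 107720051, minus strand; 7499 exon bases) had the most UMIs in GAP cells among the 8 genes and none in control cells. It had 0 UMIs in letters A and B, 365 CPM in C and 244 CPM in D. Its 1663 UMIs in GAP cells gave 310 CPM (295 to 325), 413-fold the limit of 3 counts in control cells, or 387-fold among cells with a cluster. The exact 95% intervals of the ratios start at 336 and 315. C exceeded D by 1.5-fold (1.35 to 1.66). A Ptprq UMI was found in 69.4% of GAP cells, or 42.8% (35.4 to 50.4) at equal depth, and in none of 177 control cells, which allows a share of up to 1.69%.

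Ptprq followed the order Reprogrammed Hair Cells at 598 CPM (559 to 639), Reprogammed Sup Cells 1 at 221 CPM (200 to 244), Reprogrammed Supp Cells 2 at 55.6 CPM (33.5 to 86.8), Reprogrammed Unknown 2 at 49.1 CPM (25.4 to 85.8) and the GAP cells of Reprogrammed Unknown 1 at 31.3 CPM (15.6 to 56). The first 3 differed from each other beyond counting error and the last 3 did not. A low level was present even in 15 GAP cells that belong to the clusters WT Cells 1, 2 and 3 and WT Supp Cells, where 8 cells had a UMI, none had more than 4, and the level was 37.9 CPM (20.2 to 64.7). Reprogrammed Supp Cells 2 exceeded these cells by 1.47-fold (0.688 to 3.23), which includes no difference, whereas Reprogammed Sup Cells 1 exceeded them by 5.85-fold (3.38 to 11.1) and Reprogrammed Hair Cells by 15.8-fold (9.19 to 29.8). At equal depth 20% (4.33 to 48.1) of those 15 cells had a Ptprq UMI, against 7.69% of the GAP cells of Reprogrammed Unknown 1, 40% in Reprogrammed Supp Cells 2, 48.1% in Reprogammed Sup Cells 1 and 45.1% in Reprogrammed Hair Cells. In the GAP cells of Reprogrammed Unknown 1 a UMI was found in 7 of 13 cells before thinning, with no more than 2 in a cell. Whether such low counts are the cells' own RNA was not tested, and this bears on the shares of all GAP cells with a Ptprq UMI given above. The control letters had no Ptprq UMI in any cluster.

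Stereocilin, encoded by Strc (chromosome 2, 121363728 to 121387168, minus strand; 6229 exon bases), had 0 UMIs in letters A and B, 25.3 CPM in C and 4.93 CPM in D. The GAP letters differed by 5.13-fold (2.77 to 10.4), a ratio whose interval overlaps that of Adgrv1 (4.78, 1.63 to 19). The GAP level was 16 CPM, from 86 UMIs in 18 cells. It was 21.4-fold the control limit of 3 counts, or 16.2-fold among cells with a cluster. For these ratios the exact 95% intervals start at 17.01 and 12.77. The cells without a cluster held 31 of the UMIs (36%), 27 of them in the same single cell that held the 12 Adgrv1 UMIs. Reprogrammed Hair Cells had 33.9 CPM (25.1 to 44.8) in 9 of 51 cells, and exceeded the next set, Reprogrammed Unknown 2 at 4.09 CPM, beyond counting error (1.42 to 334). Of the other sets none held more than 4 UMIs. A UMI was found in 11.8% of the cells of Reprogrammed Hair Cells at equal depth and in 1.85% of Reprogammed Sup Cells 1. The letters C and D gave 66.4 and 12.6 CPM in Reprogrammed Hair Cells.

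**Figure D2:**
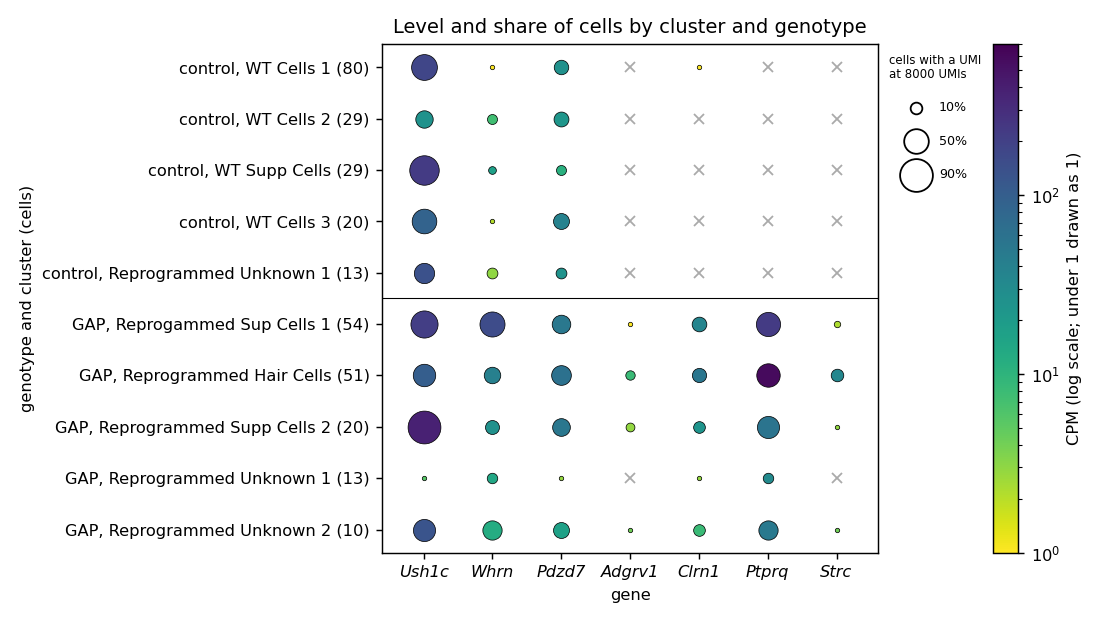
Level (colour, CPM on a log scale) and share of cells with a UMI at 8000 UMIs per cell (circle area rises with the share) for 7 genes in the 10 sets of genotype and cluster, with the number of cells in brackets and a cross for 0 UMIs. Adgrv1, Ptprq and Strc have crosses in all 5 control sets, Whrn is darkest in Reprogammed Sup Cells 1 and Ptprq in Reprogrammed Hair Cells.

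Among the GAP cells alone, Reprogrammed Hair Cells and the other clustered cells were set side by side, as a description, since the authors made the clusters from these cells' expression. Of the 6 members at 10 CPM or more, Clrn1, Ptprq and Strc were at least 2-fold higher in the hair cell cluster and Whrn was at least 2-fold lower. Of 10385 genes, 8.96% were at least 2-fold higher and 10.7% at least 2-fold lower. The median log2 ratio of the 6 was 0.87, against 0.03 over all genes. In the other clustered cells 5 of the 6 were at 10 CPM or more, and Strc passed the limit only through the hair cell cluster, where it was high. Ptprq was 4.08-fold higher (3.64 to 4.58), with 598 against 147 CPM, and Strc was 17.3-fold higher (7.39 to 49.3), from 49 against 6 UMIs. Clrn1 was 2.20-fold higher (1.58 to 3.06), but 1.33-fold (0.902 to 1.95) without its single highest cell, so its 2-fold call rests on that cell, although within letter D, which does not hold it, the ratio was 2.90 (1.49 to 5.86). Adgrv1 was 8.46-fold higher (2.28 to 46.7), from 12 against 3 UMIs, and was under the limit on level.

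Whrn and Ush1c lay on the other side in that comparison, and Pdzd7 did not. Whrn was 2.36-fold lower in Reprogrammed Hair Cells (1.79 to 3.17), with 41.5 against 98.2 CPM. Ush1c was 1.99-fold lower (1.65 to 2.40), with 100 against 199 CPM, just inside the 2-fold limit. Pdzd7 was 1.56-fold higher (1.17 to 2.08), or 1.32-fold (0.974 to 1.78) without its highest cell. Within letter C Whrn was 1.98-fold lower and Ush1c 3.09-fold lower, and within D they were 2.64-fold and 1.75-fold lower, so which of them passed 2-fold differed by letter. Ptprq was higher by 5.38-fold in C and 3.26-fold in D, and Strc by 21.9-fold and 17.7-fold, the last from 11 against 1 UMIs. In letter D alone Adgrv1 had 2 UMIs on each side.

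**Figure D3:**
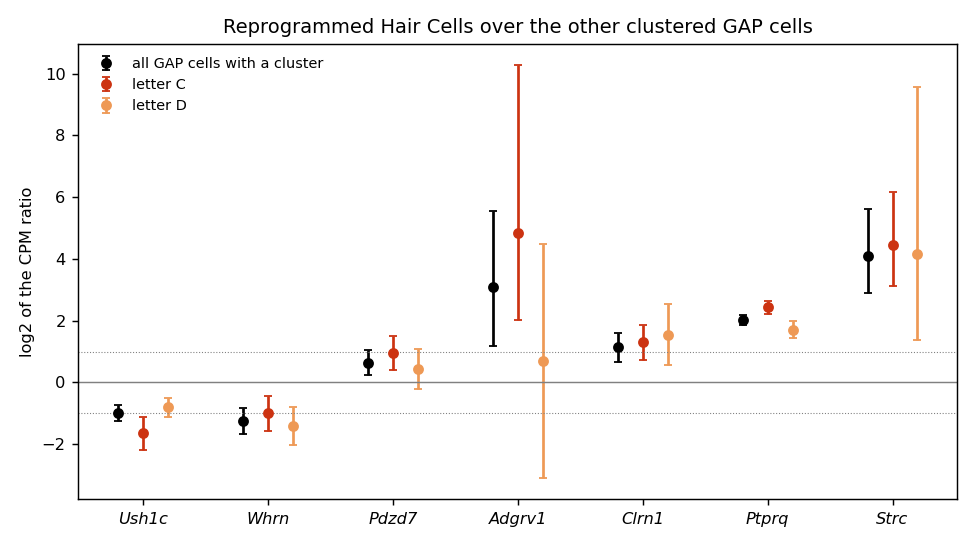
Log2 of the CPM ratio of Reprogrammed Hair Cells over the other clustered GAP cells for 7 genes, in all clustered GAP cells (black) and within letters C (red) and D (orange), with exact 95% intervals of counting error; dotted lines mark 2-fold. Ush1c and Whrn lie below the zero line and Clrn1, Ptprq and Strc above it in all 3 sets of cells, while the Adgrv1 interval in letter D spans it.

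Levels of different genes were compared per length of exon, as CPM per kilobase of the union of annotated exons (GENCODE M21). On that scale Ush1c stood at 42.2 and Ptprq at 41.3 CPM per kb in all GAP cells, but their order differed by letter, with 37.9 and 48.6 in C and 47.4 and 32.5 in D. They were followed by Whrn at 13.4, Pdzd7 at 12.4, Clrn1 at 10.3, Strc at 2.57 and Adgrv1 at 0.202. In control cells Ush1c stood at 34.7 CPM per kb, Pdzd7 at 6.29 and Whrn at 0.579. In Reprogrammed Hair Cells Ptprq led at 79.8 CPM per kb, ahead of Ush1c at 26.1, Pdzd7 at 15, Clrn1 at 14, Whrn at 5.66, Strc at 5.45 and Adgrv1 at 0.334. There too the letters differed in order: Strc was above Whrn in C (10.7 and 7.38 CPM per kb) and below it in D (2.02 and 4.53), and Clrn1 was above Pdzd7 in C (23.1 and 21.1) and below it in D (8.03 and 11). In Reprogammed Sup Cells 1 the order was Ush1c at 55, Ptprq at 29.5, Whrn at 21.4, Pdzd7 at 12.6 and Clrn1 at 9.20 CPM per kb. The annotation may differ from the release used for counting. Whether these UMI counts rise with exon length was not tested, and the orders above rest on it. Without division by length Ptprq stood at 310 CPM and Ush1c at 162 CPM in all GAP cells.

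The level of Ptprq in Reprogrammed Hair Cells was carried by a minority of its cells. The per-cell level ran from 0 through a median of 65.9 CPM to 5422 CPM, and the 75th percentile was 617 CPM. In Reprogammed Sup Cells 1 the median was as high, at 69.1 CPM, but the 75th percentile was 182 CPM and the maximum was 1130 CPM. Of the Ptprq UMIs of Reprogrammed Hair Cells 57.1% lay in 5 cells, and 1 cell of letter C held 207 of the 864 (24.0%). The ratio of variance to mean at 8000 UMIs per cell, which Poisson sampling alone would put at 1, was 13.8 in that cluster, or 9.59 without that cell, against a median of 1.66 over 9534 genes. In Reprogammed Sup Cells 1 it was 4.36, against a median of 1.56 over all genes there.

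In Reprogrammed Hair Cells the other members with UMIs had lower ratios of variance to mean than Ptprq, at lower mean counts. The share of UMIs in the 5 highest cells gave another order. It was above the 57.1% of Ptprq for Clrn1 (70.5%), Strc (85.7%) and Adgrv1 (91.7%). For Ush1c (38.6%), Whrn (50%) and Pdzd7 (54.5%) it was below. Whrn had a variance to mean ratio of 3.31 in Reprogammed Sup Cells 1, at a mean of 1.5 UMIs per thinned cell. In Reprogrammed Hair Cells it was 0.95, at a mean of 0.235. The latter rests on 12 UMIs, so the 2 ratios do not compare evenness at a like level. The highest GAP cell had 1564 CPM of Whrn and belonged to Reprogammed Sup Cells 1. Clrn1 had a ratio of 3.66 in Reprogrammed Hair Cells, or 2.48 without its highest cell. Ush1c had 2.18 over all GAP cells and 2.54 over control cells, where the medians of all genes were 1.79 and 2.13. Pdzd7 had 2.05 over GAP cells and 1.85 over control cells. Of the Strc UMIs of all GAP cells, 74.4% lay in 5 cells, against 30.7% for Ptprq.

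**Figure D4:**
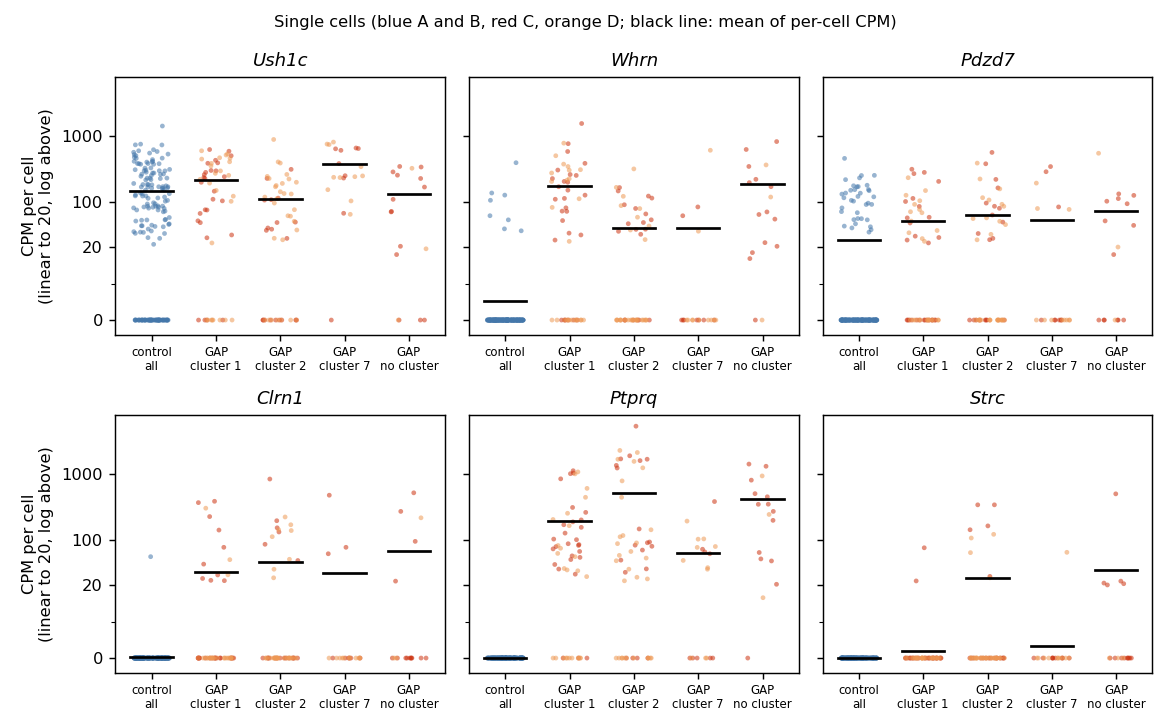
CPM of 6 genes in each cell, on an axis linear to 20 and logarithmic above, for all control cells (blue), 3 GAP clusters and the GAP cells without a cluster (letter C red, letter D orange); 1 is Reprogammed Sup Cells 1, 2 is Reprogrammed Hair Cells, 7 is Reprogrammed Supp Cells 2, and black lines are means of the per-cell values. Ptprq in cluster 2 shows a lower band and an upper band that reaches 5422 CPM, while its control cells all lie at 0.

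Detection of Strc and Clrn1 went together with that of Ptprq from cell to cell at equal depth, while other pairs differed. All 8 GAP cells with a Strc UMI also had a Ptprq UMI, which 77 of the 180 GAP cells had. Clrn1 was found in 26% of the GAP cells with Ptprq and in 2.91% of those without. Within Reprogrammed Hair Cells Clrn1 was in 30.4% of the 23 cells with Ptprq and in 3.57% of the 28 without. Whrn was in 39.1% of the former and 7.14% of the latter. Ush1c did not share this pattern: it was in 34.8% of the cells with Ptprq and 46.4% of those without, with a Pearson correlation of log2 UMIs of -0.14 over the 51 cells. In Reprogammed Sup Cells 1 Whrn differed less between cells with and without Ptprq (57.7% and 46.4%, over 26 and 28 cells). Whrn and Pdzd7 did not go together: over all GAP cells Pdzd7 was in 20% of those with Whrn and 25.6% of those without. All these cells come from 2 letters and share depth after thinning. The correlation is a description.

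Counting the members per cell at equal depth summarises this. Control cells had a UMI of 0.672 of the 8 genes on average, 42.9% had none, and 1 of 177 cells had 3 or more. GAP cells averaged 1.69 genes, 20.6% had none, and 48 of 180 (26.7%) had 3 or more, with a maximum of 6. The mean was 1.89 in letter C and 1.48 in D, both above the 0.685 of A and 0.659 of B. By cluster it was 2.07 in Reprogammed Sup Cells 1, 1.85 in Reprogrammed Supp Cells 2, 1.73 in Reprogrammed Hair Cells, 1.30 in Reprogrammed Unknown 2 and 0.154 in the GAP cells of Reprogrammed Unknown 1. GAP cells in the clusters WT Cells 1, 2 and 3 and WT Supp Cells averaged 0.733, within the range of 0.483 to 0.828 of the control sets. At least 4 genes were found in 17.6% of Reprogrammed Hair Cells and 11.1% of Reprogammed Sup Cells 1, although the mean was lower in the former. The cells without a cluster averaged 2.41 genes, and GAP cells with a cluster 1.61.

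**Figure D5:**
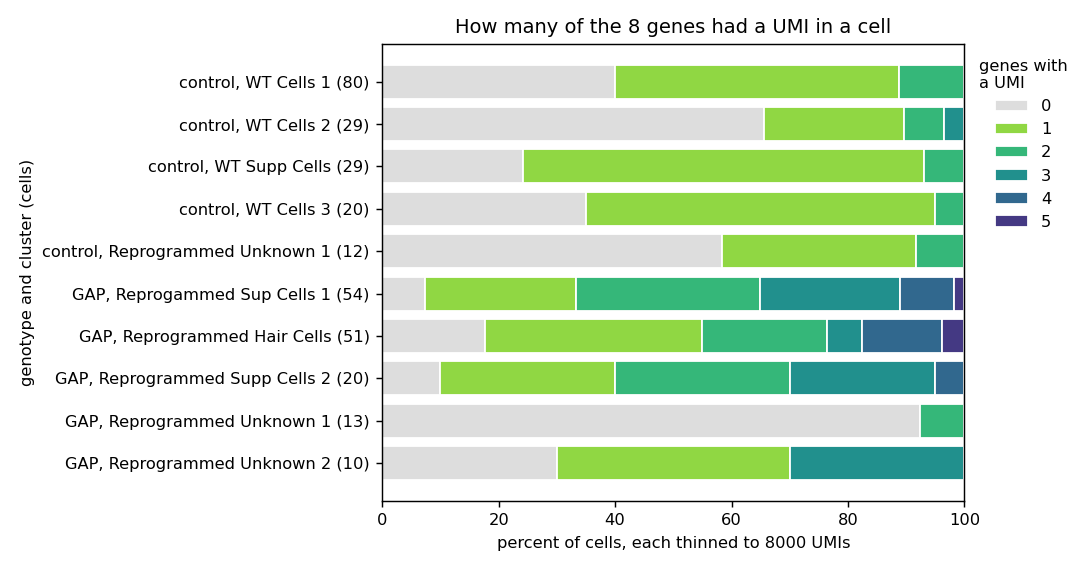
Percent of cells, each thinned to 8000 UMIs, in which 0 to 5 of the 8 genes had a UMI, for the 10 sets of genotype and cluster (cells in brackets). Cells with 3 or more genes make up 35.2% of Reprogammed Sup Cells 1 and 23.5% of Reprogrammed Hair Cells, and 3.45% of WT Cells 2 among the control sets.

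The members' counts were set beside the UMIs of Atoh1, Gfi1 and Pou4f3, the genes of the allele, in the same cells. UMIs were counted per gene, so RNA from the allele and from the genes' own loci cannot be told apart. Over 180 GAP cells at equal depth Spearman's rho with their summed UMIs was 0.39 for Ptprq, 0.25 for Clrn1, 0.23 for Whrn and 0.06 for Ush1c. Within Reprogammed Sup Cells 1 rho for Ptprq was 0.44 (54 cells), and within Reprogrammed Hair Cells 0.12 (51 cells). For Whrn rho was -0.24 within the former, where its level was highest, and 0.06 within the latter. These are weak relations in sparse counts and are given as a description.

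Of 19 other genes of the same complexes and links, 15 were at 10 CPM or more in a genotype. Of these, 10 had a level in GAP cells at least 2-fold above that in controls and none was 2-fold lower, with a median log2 ratio of 3.15, beside the 13% and 6.61% of all genes given above. Only 9 of the 15 were at 10 CPM or more in control cells, and the others passed the limit through the GAP cells, where they were high. Cdh23, the upper part of the tip link, had 3.50 CPM in control and 93.4 CPM in GAP cells, a ratio of 26.7 (15.8 to 49.2), while Pcdh15, the lower part, had 226 and 286 CPM, a ratio of 1.26 (1.16 to 1.37). Myo7a, the motor that carries harmonin and SANS, had 23.5 and 216 CPM in control and GAP cells, a ratio of 9.19 (7.44 to 11.5). Myo6, a motor at the stereocilium base, had 171 and 1115 CPM, a ratio of 6.51 (6.02 to 7.06). Vezt, an adherens junction protein linked to the ankle complex, had 190 and 187 CPM. Otog, a tectorial membrane protein, had 803 and 601 CPM.

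In Reprogrammed Hair Cells against the other clustered GAP cells, 9 of 15 of those genes were at least 2-fold higher and 1 lower, where the shares of all genes were 8.96% and 10.7%. In the other clustered cells 13 of the 15 were at 10 CPM or more, and the rest passed the limit through the hair cell cluster. Myo7a was 5.21-fold higher (4.51 to 6.04) and Cdh23 6.11-fold (4.78 to 7.86), whereas Pcdh15 had a ratio of 0.971 (0.860 to 1.10) and Vezt of 1.01 (0.874 to 1.16). Myo6 was 1.18-fold higher (1.11 to 1.25). Otog was the lower gene, 11.1-fold, with 77.5 against 860 CPM. The summed hair cell markers, which include Myo6 and Myo7a, were at 3433 CPM in Reprogrammed Hair Cells, 2979 CPM in Reprogammed Sup Cells 1, 1147 CPM in Reprogrammed Supp Cells 2 and 483 to 530 CPM in the GAP cells of the Reprogrammed Unknown clusters. Their part in the values of the members was not tested.

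The genes whose level over the 10 sets of genotype and cluster was most like each member were named by the Pearson correlation of log2 CPM, among 11651 genes. For Ptprq they were Atp2b3, a plasma membrane calcium pump (0.997), and Otof, the synaptic calcium sensor of hair cells (0.996). Runx1t1 (0.985) and Lmo1 (0.984), both transcriptional regulators, were most like Clrn1, and Itln1 (0.997) and Mgat4c (0.984) most like Strc. Whrn was closest to the metal transporter Slc39a8 (0.957) and to Lrrn1 (0.914), which shared its maximum in Reprogammed Sup Cells 1. For Ush1c they were Me1, malic enzyme (0.957), and Gigyf2 (0.954), and for Pdzd7 Tet1, which oxidises methylated cytosine in DNA, (0.947) and Snx15 (0.930). Among the members themselves Clrn1 and Ptprq were closest (0.97), Whrn and Ptprq had 0.80, and Ush1c and Ptprq 0.05. The 10 sets share letters and genotype, so these are orderings of likeness only.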

How the data were processed

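Single cells were sorted into plates and libraries made by SMART-MATQ, per the labels' protocols. The authors deposited whole-number UMI counts per gene and cell from exons, with no normalization. STAR, HTSeq and mm10 are named in the submitters' processing notes. Their versions, the gene annotation and whether counting used strand: not given in the sources used here. The 8 members, the 19 partner genes, the markers and the motifs were chosen with earlier results of these data known. All 360 columns were matched to samples by title, and the authors' deposited clusters were used as given. No doublet caller was run. The values of 1 partner gene are not reported here.

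For each set of cells the UMIs of a gene were added and divided by the set's total to give CPM. Log2 ratios add 1 CPM. A gene was called at 2-fold or more, among genes at 10 CPM or more in 1 of the sets. Intervals at 95% are exact (Poisson for levels, conditional binomial for ratios, Clopper-Pearson for shares) and cover counting error only. Where a set held no UMI of a gene, folds against it were computed from 3 counts in the whole set. These folds leave out the counting error of the other set, so the lower end of the exact interval is given beside them. For shares, spread and co-detection each cell was thinned without replacement to 8000 UMIs, which left out 3 control cells. With 1 sample per genotype no test was made. Only sets of at least 10 cells are described by cluster. All 8 members are named. Of the partners, the 4 with most UMIs over all cells (Myo6, Otog, Pcdh15 and Vezt) and Myo7a and Cdh23 are named, with the 2 genes most like each member at 10 CPM or more in a set, leaving out members, predicted genes and mitochondrial genes. On counts simulated by Poisson sampling alone, which the intervals assume, 95.6% of intervals held the true ratio for the genotype comparison (9749 genes). All genes set 4-fold apart were called there. For the cluster comparison (9935 genes) 95.3% of intervals held the true ratio. Spread between cells, letters or animals was not simulated, so this checks the computation and not how well the intervals cover these data. Python 3.11.15, numpy 2.4.6, pandas 2.3.3, scipy 1.17.1, R 4.3.3, edgeR 4.0.16 (TMM factors) and DESeq2 1.42.0 (size factors) were used, the last pair for scaling alternatives only. Alternatives were other weightings of cells, scalings, depths, pseudocounts and limits on level, and leaving out each letter. Another 2 were added after seeing the data: only cells with a cluster, and leaving out the cell with most UMIs of each member.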

Additional observations from a re-analysis of the deposited data

How the results depend on the processing

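No member's ratio and neither median changed sign under the alternatives run. The count of members at least 2-fold higher in GAP than in control cells was 4, and 2 with a limit of 50 CPM, which Clrn1 and Strc do not reach; leaving out a letter gave 3 (without C, where Strc falls under 10 CPM) to 5 (without D, where Pdzd7 joins), and thinning every cell to 8000 UMIs gave 3, where Strc again falls under 10 CPM. Their median log2 ratio of 4.17 became 1.83 with 10 CPM added, 2.59 with a limit of 50 CPM, and 3.80 to 4.62 without a letter. In Reprogrammed Hair Cells against the other clustered GAP cells the count of 3 was 2 to 4 elsewhere, 3 to 4 without a letter, with Adgrv1 joining without D; Clrn1 was not called with 10 CPM added or without its highest cell. The median of 0.87 became 0.63 with a limit of 50 CPM, 1.11 with no limit, 0.40 without each member's highest cell, and 0.94 to 1.27 without a letter. Ush1c joined Whrn on the 2-fold lower side under TMM factors, median-of-ratios scaling and thinning, and replaced it without letter D. The mean number of members per cell was 0.467 in control cells, 1.15 in GAP cells and 1.20 in Reprogrammed Hair Cells at 4000 UMIs, and 0.906, 2.66 and 2.90 without thinning. No paired analysis was possible because each genotype is 1 sample and cells of different letters share no number that pairs them. At this depth Ush1g, with 0 UMIs, and Adgrv1, under 10 CPM, allowed no call at the limit of 10 CPM.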
